A study of Mus musculus with 6 samples.

Results

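The collagen genes were taken as every gene whose symbol has the form Col, a number, a, a number. This rule found 44 of the 22183 genes in the table. It uses names and no measured value. The 44 genes were sorted by the structure of their proteins into 11 fibrillar, 6 basement membrane, 6 beaded filament, 9 FACIT, 2 multiplexin, 3 short chain network, 4 transmembrane, 1 anchoring fibril and 2 unclassified collagens. RNA from mouse kidney was sequenced in 6 libraries. The control libraries, numbered 1, 3 and 6 in the labels, came from mice that received pcDNA3, an expression plasmid without insert. The Wnt1 libraries, numbered 2, 3 and 5, came from mice that received a Wnt1 plasmid, and their genotype is labelled as Wnt1 overexpression. Wnt1 is a signalling protein that stabilizes beta-catenin in the cells it reaches. By its title, the series asks how such signalling, with the factor ATF3, acts when acute kidney injury turns into chronic disease. The labels give no injury procedure, strain, sex, age, plasmid route, time after delivery or target cell, and nothing says that each library is a separate animal. The p-values therefore measure only the spread between these libraries, which may be technical.

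Collagens are secreted proteins of 3 chains wound into a triple helix, and each chain has a gene of its own. Fibrillar collagens form the tensile fibres of the interstitium and accumulate in kidney fibrosis. Type IV collagen forms the sheet-like network of basement membranes, and in the glomerulus the chains of Col4a3, Col4a4 and Col4a5 build the filtration barrier, while Col4a1 and Col4a2 chains are found in basement membranes throughout the body. The remaining classes link fibres, anchor membranes or sit on cell surfaces.

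The libraries held between 23585040 and 27218091 expected counts, so depth was similar. Wnt1 itself had 0 counts in 5 libraries and 1 count in Wnt1 library 3, so its transcript gives no check of the labels. In a principal component analysis the groups lay apart on the first component (77.4% of the variance). Control library 6 and Wnt1 library 5 lay apart from the other 4 on the second (17.4%). Levels are given as CPM, counts scaled to a common library size with factors from the trimmed mean of M-values (TMM). Of 10 proximal tubule markers 9 were lower with Wnt1, and their summed level was 41620 to 49330 CPM in the controls and 8664 to 12140 in the Wnt1 libraries. All 10 macrophage markers were higher with Wnt1, with sums of 227.3 to 272.6 and 1798 to 2186 CPM. Among all tested genes, 22.4% were higher and 18.7% lower at the threshold given below. The part of these marker differences in the collagen results was not tested. In a whole kidney, fewer cells of a type and less RNA per cell cannot be told apart.

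Collagen transcripts took up a larger share of the RNA in the Wnt1 libraries. They were 0.2358%, 0.2103% and 0.2149% of all counts in control libraries 1, 3 and 6, and 0.6046%, 0.8657% and 0.9056% in Wnt1 libraries 2, 3 and 5. The lowest Wnt1 library lay above the highest control. The summed level was 2549 ± 128.2 in the controls and 6857 ± 1483 CPM with Wnt1 (SD, n = 3 each), a ratio of 2.69. On the authors' FPKM scale, which divides by transcript length and has no composition factor, the sum was 363.8 ± 22.79 and 1415 ± 294.1, a ratio of 3.89. The test was run on this FPKM sum (exact permutation test, two-sided, p = 0.1, the smallest that 3 against 3 libraries allow).

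Of the 44 genes, 36 had enough counts to be tested, and 26 of these were higher and 4 lower in the Wnt1 libraries at an adjusted p under 0.05 (edgeR quasi-likelihood test, Benjamini-Hochberg adjustment over 14432 genes). Over all tested genes, 22.4% were called higher and 18.7% lower. The median log2 fold change was 1.79 over the tested collagens, also with Col10a1 set at its lower bound, and 0.05 over all tested genes. The groups did not overlap in 31 of the 36, against 53.5% of all tested genes. The 4 lower genes were Col4a3, Col4a4, Col6a6 and Col23a1, so every fibrillar collagen that was called was higher, while basement membrane, beaded filament and transmembrane collagens moved both ways. The 6 genes without a call were Col27a1, Col14a1, Col20a1, Col6a4, Col13a1 and Col26a1. The choice of scaling matters for the whole table: with library totals in place of TMM factors the median of all genes moved to 0.47, with 6348 genes higher and 1288 lower in place of 3239 and 2697. Then 28 collagens were called higher and 3 lower.

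**Figure D1:**
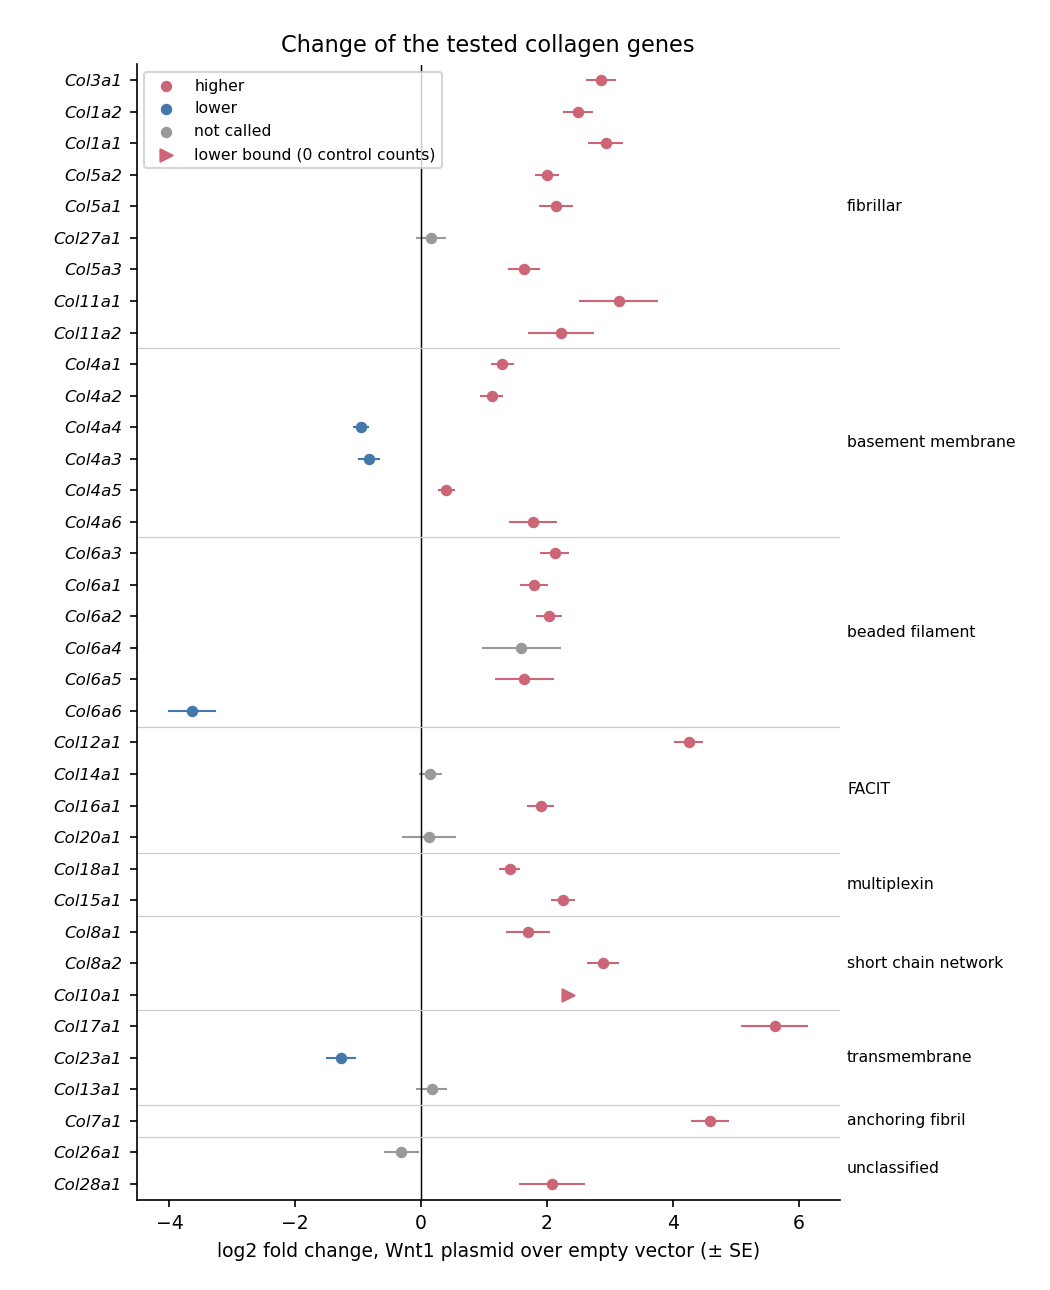
Log2 fold change of the 36 tested collagen genes, Wnt1 plasmid over empty vector, with standard errors, grouped by class; red points were called higher, blue lower and grey neither, and the triangle is the lower bound for Col10a1, which had 0 control counts. Every fibrillar point lies right of 0, though the standard error of Col27a1 reaches across it. Blue points lie among the basement membrane, beaded filament and transmembrane genes.

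**Figure D2:**
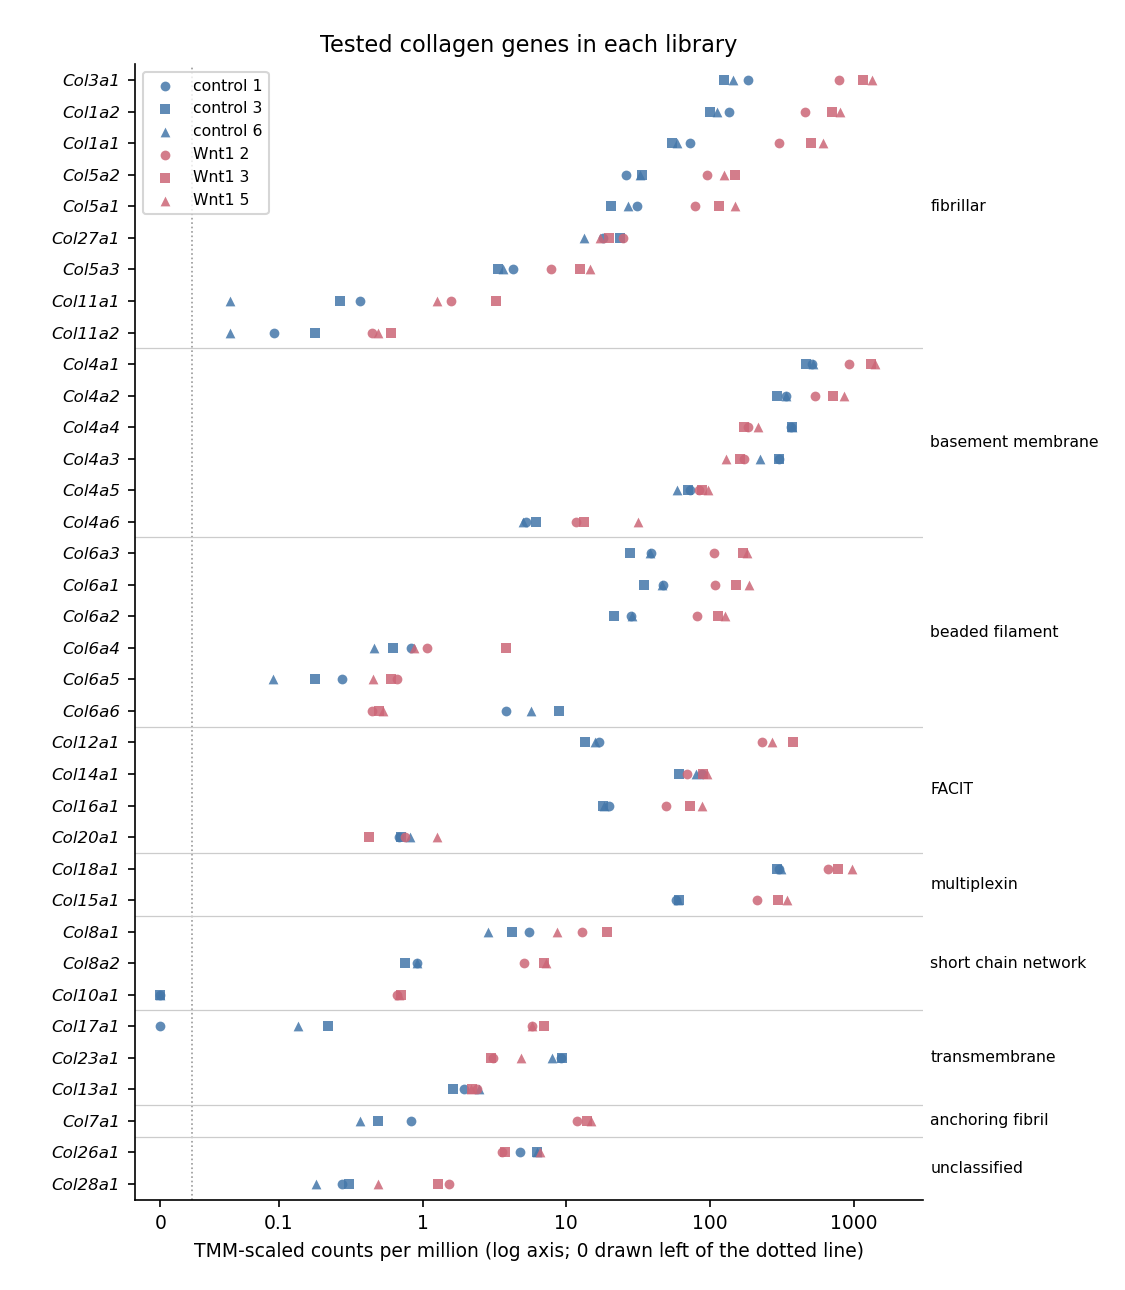
TMM-scaled CPM of the 36 tested collagen genes in each of the 6 libraries on a log axis, with controls in blue and Wnt1 libraries in red. The red and blue symbols are apart in 31 of the 36 rows, and 0 values are drawn left of the dotted line.

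Among the fibrillar collagens 8 of the 9 tested genes were higher, with a median log2 fold change of 2.23. Col3a1 (chr1:45311538-45349706, GRCm38), the chain of type III collagen that mixes with type I fibres, had 183.3, 124.1 and 143.7 CPM in the controls and 781.9, 1162 and 1328 in the Wnt1 libraries. It rose by 2.86 ± 0.24 on the log2 scale (SE, edgeR adjusted p = 0.000114). Col1a1 (chr11:94936224-94953042), which encodes the main chain of type I collagen, stood at 72.14, 54.32 and 59.16 CPM against 301.8, 503.5 and 612.7. Neither gene had overlapping groups, and Wnt1 library 2 was the lowest Wnt1 library for both. The change of Col1a1 was 2.93 ± 0.27 (edgeR adjusted p = 0.000192). Its partner Col1a2 (chr6:4504814-4541544) had 136.3, 99.78 and 111.3 CPM and 456.9, 707.1 and 798.1, a change of 2.50 ± 0.23 (edgeR adjusted p = 0.000166). The order of the libraries was the same as for Col1a1: control library 1 was the highest control, and Wnt1 library 5 the highest of all.

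The 150 bases before the RefSeq start of Col3a1 (chr1:45311388-45311537, plus strand, GRCm38.p6) are given because this gene is the most abundant fibrillar transcript in both groups. Capitals mark the letters TATAAA, and the sequence runs 5′ to 3′.

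Col3a1: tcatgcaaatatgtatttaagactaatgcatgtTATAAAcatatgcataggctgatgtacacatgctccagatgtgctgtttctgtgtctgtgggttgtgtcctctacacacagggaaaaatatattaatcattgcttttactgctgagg

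Type V and type XI collagens nucleate fibrils and limit their width. Col5a2 had 25.89, 33.54 and 32.36 CPM in the controls and 95.1, 147.8 and 125 in the Wnt1 libraries, a change of 2.003 ± 0.20 (edgeR adjusted p = 0.000194). Col5a1 rose by 2.14 ± 0.27 from 20.38 to 30.99 CPM over the controls to 78.65 to 149.7, and Col5a3 by 1.64 ± 0.26 from at most 4.276 CPM to at least 7.83. In all 3 type V genes the groups lay apart. The type XI genes were scarce: Col11a1 ranged from 0.04565 to 0.3678 CPM in the controls and from 1.252 to 3.257 in the Wnt1 libraries, and Col11a2 from 0.04565 to 0.1772 and from 0.4438 to 0.6019. Both passed the test, with log2 fold changes of 3.14 ± 0.62 and 2.23 ± 0.52, but these sizes rest on few control counts. Without control library 1 the value for Col11a1 was 3.73, and without control library 3 that for Col11a2 was 2.88. Col27a1, a fibrillar collagen of cartilage matrix, overlapped between the groups, with 13.24 to 23.62 CPM in the controls and 17.03 to 24.79 with Wnt1 (log2 fold change 0.16 ± 0.24, edgeR adjusted p = 0.622). Col24a1 had 22 control and 41 Wnt1 counts in all and was not tested. Col2a1, the cartilage fibril gene, had 8 counts over all libraries.

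Of 12 markers of fibroblasts, pericytes and myofibroblasts, 8 were higher and 1 lower, with a summed level of 340.1 to 397.9 CPM in the controls and 767.2 to 1009 in the Wnt1 libraries. Over all tested genes 22.4% were higher and 18.7% lower. None of the 12 was at 0. Acta2, the smooth muscle actin of myofibroblasts, rose from 45.6 ± 2.628 to 156.5 ± 39.63 CPM (SD, n = 3). Meox1 was the lower marker, though not with library totals, where 6348 of all 14432 tested genes were higher and 1288 lower. The part of these cells in the fibrillar result was not tested.

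The makeup of the collagen pool differed, with a smaller basement membrane and a larger fibrillar share in every Wnt1 library than in any control. Shares were taken from the summed FPKM within a library, so they do not depend on library scaling. Fibrillar genes held 19.17%, 16.63% and 17.54% of the pool in the controls and 34.88%, 37.28% and 38.46% in the Wnt1 libraries. Basement membrane genes held 52.05%, 54.52% and 51.99% against 33.48%, 32.31% and 31.23%. Both sets of shares lay fully apart, with mean differences of 19.1 and -20.52 percentage points (exact permutation test, two-sided, p = 0.1, adjusted over 9 classes 0.15, and 0.1 is the smallest possible). Without Col1a1, Col1a2 and Col3a1 the fibrillar difference was 1.788 points, so it rests on these 3 genes. The basement membrane share was smaller although the class's summed level was higher, at 1534 ± 45.13 and 2367 ± 422 CPM, a ratio of 1.54 against 6.11 for the fibrillar class. The multiplexin share was 17.22 ± 0.7606% and 17.9 ± 0.9107%, and the FACIT share 5.549 ± 0.5022% and 5.19 ± 0.4603%, both with overlapping groups.

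**Figure D3:**
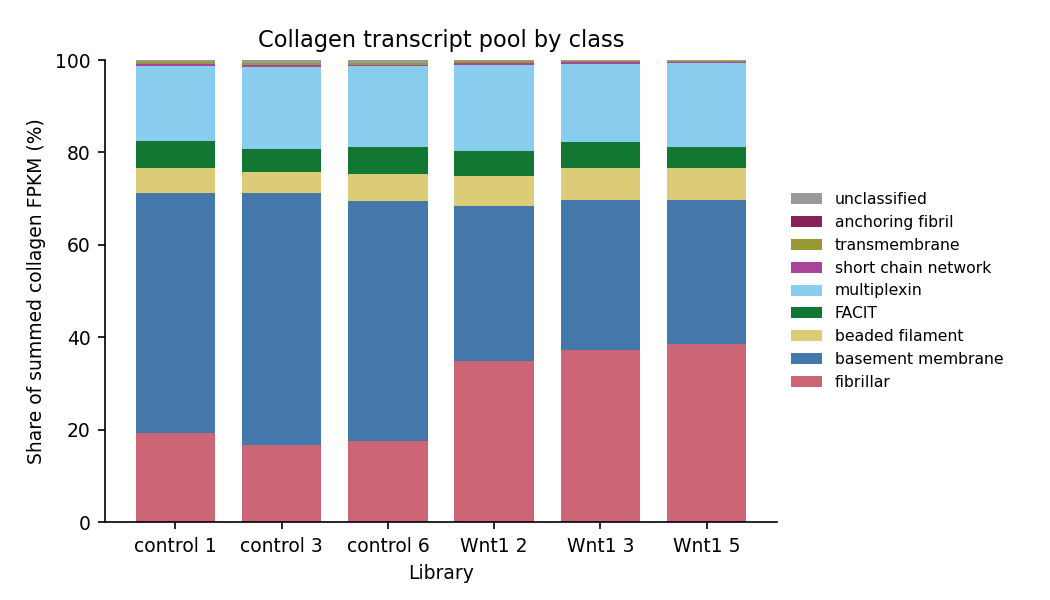
Share of the summed collagen FPKM held by each class in each library, stacked to 100%. The red fibrillar block spans 16.63% to 19.17% in the controls and 34.88% to 38.46% in the Wnt1 libraries, and the blue basement membrane block is at least 51.99% and at most 33.48%, respectively.

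Ranked by mean FPKM, Col4a1 was first in both groups, at 79.19 ± 4.746 and 266.8 ± 55.32. Below it the order changed. In the controls it was followed by Col18a1 (52.6), Col4a2 (43.22), Col4a4 (31.5), Col4a3 (27.79) and Col3a1 (24.88), and in the Wnt1 libraries by Col3a1 (237.5), Col18a1 (188.6), Col1a2 (142.2), Col4a2 (125.5) and Col1a1 (91.94). Taking 1 SD around each mean, Col4a1, Col18a1, Col4a2 and Col4a4 were apart from each other in the controls, while Col4a3 overlapped both Col4a4 and Col3a1. In the Wnt1 libraries each of the 6 genes overlapped its neighbours in this order.

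The 6 type IV genes moved in different directions, 4 higher and 2 lower. Col4a1 (chr8:11198423-11312826) had 508.9, 461.7 and 517 CPM in the controls and 918.1, 1309 and 1412 in the Wnt1 libraries (log2 fold change 1.29 ± 0.18, edgeR adjusted p = 0.000984). Col4a2 (chr8:11312805-11449287), whose chain joins that of Col4a1 in the general basement membrane network, had 334.9, 294.1 and 338.8 against 533.9, 719.3 and 851.1 CPM (1.12 ± 0.18, edgeR adjusted p = 0.00209). The groups were apart for both genes, and Wnt1 library 2 was again the lowest Wnt1 library.

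Col4a4 (chr1:82448423-82586849), a chain of the mature glomerular basement membrane, was close to constant in the controls at 364.2, 370.9 and 370.5 CPM and had 184.7, 171.7 and 213.8 in the Wnt1 libraries. It fell by 0.96 ± 0.13 on the log2 scale (edgeR adjusted p = 0.000757). Its partner Col4a3 (chr1:82586921-82722059) had 300.1, 301.3 and 222.4 CPM in the controls and 173.2, 162.5 and 128.8 in the Wnt1 libraries. All Wnt1 libraries lay below all controls for both genes, and for Col4a3 control library 6 and Wnt1 library 5 were the lowest of their groups. Col4a3 fell by 0.83 ± 0.17 (edgeR adjusted p = 0.00651), but this call was lost with library totals (-0.40, edgeR adjusted p = 0.0976) and without control library 1 or 3 (-0.69 and -0.68, edgeR adjusted p = 0.0519 and 0.056). On the FPKM scale, limma gave -0.39 with an adjusted p of 0.106.

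Col4a5 (chrX:141475385-141689234), a chain found in trimers with Col4a3 and Col4a4 and in others with Col4a6, had 73.01, 70.23 and 59.02 CPM against 84.35, 87.16 and 96.13. The groups were apart by a narrow gap, and the log2 fold change was 0.40 ± 0.13 (edgeR adjusted p = 0.042). It no longer passed without Wnt1 library 2 or 3 (edgeR adjusted p = 0.0721 and 0.0816). Col4a6 (chrX:141165403-141474076), a chain of Bowman's capsule and some tubule basement membranes, had 5.241, 6.159 and 4.976 CPM in the controls and 11.7, 13.24 and 31.34 in the Wnt1 libraries. Wnt1 library 5 was more than double the other Wnt1 libraries. The change was 1.78 ± 0.38 (edgeR adjusted p = 0.00799), and 1.19 without Wnt1 library 5.

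**Figure D4:**
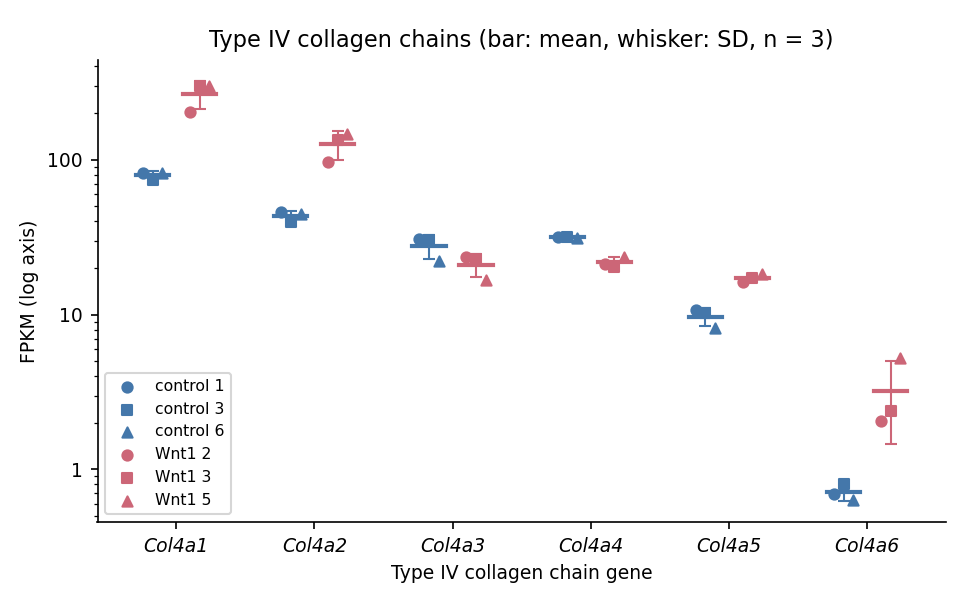
FPKM of the 6 type IV collagen genes in each library on a log axis, with controls in blue and Wnt1 libraries in red; bars are means and whiskers SDs (n = 3). Col4a1 and Col4a2 lie higher with Wnt1, Col4a4 lies lower, and Col4a3 overlaps between groups on this unscaled axis (22.059 to 30.826 and 16.823 to 23.464 FPKM).

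Podocytes, which make the Col4a3, Col4a4 and Col4a5 network in the adult glomerulus, were followed by 10 markers. Of these 1 was higher and 3 lower, none was at 0, and their summed level was 730 to 837.6 CPM in the controls and 724.9 to 741.1 in the Wnt1 libraries. Their median log2 fold change was 0.02, against 0.05 over all tested genes, of which 22.4% were higher and 18.7% lower. With library totals 5 podocyte markers were higher and 1 lower, while 6348 and 1288 of all 14432 tested genes were, so nothing is read from these counts about podocytes. Of 10 distal nephron and collecting duct markers, 6 were lower, with sums of 8733 to 9464 and 2982 to 4690 CPM. The part of these cells in the type IV changes was not tested.

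The type IV genes lie in 3 head-to-head pairs, with both starts side by side on opposite strands. Only 71 bases separate Col4a4 from Col4a3, and both were lower. The annotated starts of Col4a1 and Col4a2 overlap by 22 bases, and both were higher. Col4a6 and Col4a5 are 1308 bases apart, and both were higher. The whole gap between Col4a4 and Col4a3 (chr1:82586850-82586920, shown on the minus strand, towards Col4a4) and the 150 bases before Col4a6 (chrX:141474077-141474226, minus strand) are given below, since each lies between a pair called in the same direction, though Col4a6 changed more than Col4a5 and the Col4a5 call was not stable. Both come from RefSeq promoter windows on GRCm38.p6 and run 5′ to 3′. Capitals in the second mark CCGCCC, the reverse complement of the GC box letters GGGCGG. The first holds none of the motifs searched.

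Col4a4: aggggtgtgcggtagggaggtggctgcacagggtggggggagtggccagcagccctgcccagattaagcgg
Col4a6: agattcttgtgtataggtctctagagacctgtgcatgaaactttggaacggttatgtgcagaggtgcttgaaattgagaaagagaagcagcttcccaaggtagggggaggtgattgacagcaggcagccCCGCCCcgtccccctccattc

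Type VI collagen forms beaded filaments around cells from the chains of Col6a1, Col6a2 and a further gene, usually Col6a3. All 3 genes were higher. Col6a1 (chr10:76708792-76726168) had 47.17, 34.52 and 46.51 CPM in the controls and 107.4, 151.1 and 185.6 in the Wnt1 libraries, a change of 1.79 ± 0.23 on the log2 scale (edgeR adjusted p = 0.000592). Col6a2 (chr10:76595762-76623630) had 28.23, 21.49 and 28.53 against 81.15, 113.9 and 126.5 CPM (2.04 ± 0.20, edgeR adjusted p = 0.000216). Col6a3 (chr1:90765923-90843971) had 38.62, 27.78 and 38.16 against 105.7, 170.1 and 179.4 CPM (2.12 ± 0.24, edgeR adjusted p = 0.000345). In each the groups were apart, control library 3 was the lowest control and Wnt1 library 2 the lowest Wnt1 library.

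The alternative chains Col6a4, Col6a5 and Col6a6 can take the place of Col6a3 and lie next to each other on chromosome 9 in 1 orientation. They did not all move together: Col6a6 was lower, while Col6a5 and Col6a4 had positive log2 fold changes of similar size, neither with a stable call. Col6a6 (chr9:105687809-105828160) had 3.816, 8.906 and 5.706 CPM in the controls and 0.4438, 0.4957 and 0.5311 in the Wnt1 libraries. This was the largest fall of any tested collagen, at -3.64 ± 0.38 on the log2 scale (edgeR adjusted p = 0.000237), and the controls varied by more than 2-fold among themselves. Col6a5, 27917 bases away, was higher at very low levels, from 0.09129 to 0.2759 CPM in the controls and from 0.4552 to 0.6657 with Wnt1 (1.64 ± 0.47, edgeR adjusted p = 0.0226). That call was lost in DESeq2 (adjusted p = 0.0942) and without control library 3 or 6 or Wnt1 library 2 or 3 (edgeR adjusted p from 0.0682 to 0.0816). Col6a4 had 0.8276, 0.6203 and 0.4565 CPM against 1.078, 3.824 and 0.8726. Its groups were apart by a small margin and Wnt1 library 3 stood far above the other 2. It missed the threshold (1.59 ± 0.63, edgeR adjusted p = 0.0778), but passed in DESeq2 (adjusted p = 0.0402), with library totals (0.0378) and without Wnt1 library 5 (0.0291). Without Wnt1 library 3 its value was 0.62.

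The FACIT collagens do not form fibrils but attach to them. Of 9 genes, 4 could be tested, and 2 were higher. Col12a1 (chr9:79598991-79718831), which decorates type I fibrils in tissue under tension, had 16.83, 13.47 and 15.84 CPM in the controls and 229.7, 378.8 and 269.7 in the Wnt1 libraries. The groups were far apart, and Wnt1 library 3 was the highest. The mean rose from 15.38 ± 1.726 to 292.7 ± 77.16 CPM (SD, n = 3), and by mean FPKM the gene moved from rank 20 of the 44 to rank 9. Col16a1, a FACIT of many connective tissues, had 19.91, 18.08 and 18.17 CPM against 49.71, 72.26 and 88.28 (1.90 ± 0.21, edgeR adjusted p = 0.000348).

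Col14a1 is a close relative of Col12a1 that also binds fibrils, and it behaved otherwise. It had 88.05, 61.06 and 80.07 CPM in the controls and 69.39, 89.89 and 94.99 in the Wnt1 libraries, with overlapping groups (0.15 ± 0.18, edgeR adjusted p = 0.551). Scaling decided its call: with library totals it was called higher (0.57, edgeR adjusted p = 0.0323), as it was by limma on log2(FPKM + 1) (0.49, adjusted p = 0.0451). In mean FPKM Col14a1 was more abundant than Col12a1 in the controls, at 14.83 ± 2.551 against 1.55 ± 0.2627, and less abundant with Wnt1, at 21.14 ± 3.355 against 33.02 ± 7.569. Col20a1 had 0.6897 to 0.8217 CPM in the controls and 0.4248 to 1.252 with Wnt1 (0.13 ± 0.43, edgeR adjusted p = 0.836), and its sign turned in some alternatives. Col22a1, known from tissue junctions, had 3 control counts and 32 Wnt1 counts, a depth-scaled ratio of 8.2 (exact 95% counting interval 2.565 to 41.85), and 20 of the 32 lay in Wnt1 library 5. Col19a1 had 16 and 1, a ratio of 0.04805 (0.001146 to 0.3093). Neither had enough counts for the main test, and the intervals cover counting error only. DESeq2 and edgeR without a filter on low counts tested 8 FACIT genes, and each called 1 lower. Col19a1 alone among the added genes had fewer Wnt1 than control counts. Limma on log2(FPKM + 1) without a filter also tested 8 and called 0 lower. Col9a2 and Col9a3, chains of cartilage type IX collagen, had 25 and 26 counts over all libraries, of which Wnt1 library 2 held 11 and 12. Col9a1 had 0 counts in every library, where 3 counts correspond to 0.0951 to 0.1379 CPM.

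The multiplexins are collagens with interrupted helices and sugar side chains that lie in or next to basement membranes, and both were higher. Col18a1 (chr10:77052178-77166548), the source of the fragment endostatin, had 299.9, 292.9 and 313.6 CPM in the controls and 655.3, 779.6 and 977 in the Wnt1 libraries (1.41 ± 0.17, edgeR adjusted p = 0.000429). Col15a1 (chr4:47208161-47313167), which ties basement membranes to the fibres beneath, had 57.52, 61.01 and 60.07 against 211.7, 294.5 and 345.2 CPM (2.25 ± 0.19, edgeR adjusted p = 0.00011). For both, the controls were within a narrow range, the groups were apart and Wnt1 library 5 was the highest. Of 10 endothelial markers 1 was higher and 6 lower, with sums of 833.7 to 1004 and 527.5 to 748.2 CPM and none at 0. Over all tested genes 22.4% were higher and 18.7% lower. With library totals 1 endothelial marker was lower, as were 1288 of all 14432 tested genes. The part of endothelial cells in these results was not tested.

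The short chain collagens form hexagonal nets, and all 3 were higher. Col8a2 had 0.9195, 0.7532 and 0.9129 CPM in the controls and 5.04, 6.975 and 7.208 in the Wnt1 libraries (2.89 ± 0.25, edgeR adjusted p = 0.000128). Its partner Col8a1, a chain of vessel walls and of Descemet's membrane in the eye, had 5.471, 4.209 and 2.83 against 12.9, 19.3 and 8.574 CPM (1.70 ± 0.35, edgeR adjusted p = 0.00659). Control library 6 and Wnt1 library 5 were the lowest of their groups for Col8a1 but not for Col8a2. Col10a1, the collagen of hypertrophic cartilage, had 0 counts in every control and 21, 20 and 18 counts in the Wnt1 libraries. Against a floor of 3 counts per control library it was at least 5.04-fold higher (edgeR adjusted p = 0.00116). The class median was 2.89, and 2.33 with Col10a1 at this bound. Of 8 cartilage and bone markers only Runx2 and Comp could be tested. Runx2 was higher, at 1.183 ± 0.4673 and 4.464 ± 0.8106 CPM (1.91 ± 0.33, edgeR adjusted p = 0.00266). Comp had 1.011 ± 0.08416 and 0.3198 ± 0.2858 CPM, lower in all Wnt1 libraries, and missed the threshold (-1.66 ± 0.64, edgeR adjusted p = 0.0678). Acan, Ibsp and Bglap were at 0 in every library, and the summed level of the 8, most of it Runx2 in the Wnt1 libraries, was 1.861 to 2.83 CPM in the controls and 4.438 to 6.07 with Wnt1. The part of such cells in the Col10a1 result was not tested. Col10a1 shares 18 of its 3130 exonic bases with Nt5dc1 on the opposite strand, and the sources used here do not say whether counting used strand.

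Col7a1 and Col17a1, which hold stratified epithelium to its base, were higher, Col17a1 by the largest fitted fold change apart from Col10a1. Col7a1, the chain of anchoring fibrils, had 0.8276, 0.4874 and 0.3652 CPM in the controls and 11.79, 14.02 and 14.95 in the Wnt1 libraries (4.59 ± 0.30, edgeR adjusted p = 4.38e-05). Col17a1, a transmembrane collagen of hemidesmosomes, had 0, 0.2215 and 0.1369 against 5.738, 7.045 and 5.729 CPM (5.62 ± 0.53, edgeR adjusted p = 0.00016). The groups were far apart for both, and the size for Col17a1 rests on few control counts. Without control library 3 it was 6.45. Among 6 keratinocyte markers, 4 could be tested and 2 were higher, Krt14 (1.81 ± 0.42) and Krt5 (1.61 ± 0.43). Over all tested genes 22.4% were higher. Krt10, the most abundant of the 6 in the controls, had 5.02 ± 0.8885 CPM there and 3.873 ± 0.6697 with Wnt1 (-0.37 ± 0.23, edgeR adjusted p = 0.233). Lor had 0.4089 ± 0.09781 and 0.3965 ± 0.1172 CPM and was not tested. None of the 6 was at 0 throughout a group, and the summed level was 5.931 to 8.906 CPM in the controls and 9.099 to 13.09 with Wnt1. Their part in the result was not tested. The 150 bases before the RefSeq start of Col7a1 (chr9:108953436-108953585, plus strand, GRCm38.p6) are shown because this gene had the smallest p-value among the collagen genes under 1 CPM in the controls. Capitals mark the GC box letters GGGCGG.

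Col7a1: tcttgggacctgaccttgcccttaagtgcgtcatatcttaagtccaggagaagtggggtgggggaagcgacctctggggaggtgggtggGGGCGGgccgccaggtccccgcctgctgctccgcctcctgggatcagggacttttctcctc

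The other transmembrane genes went elsewhere. Col23a1 (chr11:51289920-51583918), a surface collagen of epithelial cells, had 9.195, 9.393 and 7.943 CPM in the controls and 3.107, 3.009 and 4.856 in the Wnt1 libraries. All Wnt1 libraries were lower, and the change was -1.28 ± 0.23 (edgeR adjusted p = 0.00344). Its upstream 150 bases (chr11:51289770-51289919, plus strand) are printed for contrast, as the only lower gene outside types IV and VI, with the letters CCGCCC in capitals.

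Col23a1: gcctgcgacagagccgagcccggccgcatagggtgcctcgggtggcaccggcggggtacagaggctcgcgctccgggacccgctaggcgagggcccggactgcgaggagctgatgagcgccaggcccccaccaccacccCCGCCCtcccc

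Col13a1, a surface collagen of muscle and nerve contacts, overlapped between the groups at 1.639 to 2.465 and 2.162 to 2.409 CPM (0.17 ± 0.25, edgeR adjusted p = 0.628). Col25a1 had 13 and 17 counts in all and was not tested. Of the unclassified genes, Col28a1 had 0.2759, 0.3102 and 0.1826 CPM in the controls and 1.522, 1.275 and 0.4932 with Wnt1. The groups were apart, though Wnt1 library 5 was near the controls (2.08 ± 0.52, edgeR adjusted p = 0.0133). The call was lost without control library 6 or Wnt1 library 2 (edgeR adjusted p = 0.06 and 0.0511). It was also lost by limma on log2(FPKM + 1) without a filter. Col26a1 had 4.782 to 6.254 CPM in the controls and 3.582, 3.753 and 6.563 with Wnt1, where library 5 alone reached the controls (-0.32 ± 0.28, edgeR adjusted p = 0.401). Without Wnt1 library 5 it was called lower (-0.65, edgeR adjusted p = 0.0289), and with library totals its sign turned (0.10).

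Ratios of FPKM within a library were taken for 12 pairs of chains that share a trimer, a locus or a class, and for 9 of them the groups did not overlap. Of all tested genes taken singly, 53.5% did not overlap either. The share over other gene pairs was not computed, so this count is a description. No pair could pass, since the smallest exact permutation p is 0.1 and its value adjusted over the 12 pairs was 0.133. Type I collagen usually holds more of the Col1a1 than of the Col1a2 chain, yet the ratio of the transcripts was below 1 in every library. It was 0.473, 0.491 and 0.474 in the controls and 0.592, 0.636 and 0.688 with Wnt1. By contrast Col3a1 to Col1a1 overlapped at 2.71, 2.60 and 2.96 and 3, 2.46 and 2.48, a mean log2 difference of -0.06. Col4a1 to Col4a2 was 1.80, 1.87 and 1.83 in the controls and 2.12, 2.24 and 2.03 with Wnt1.

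The ratio that differed most was Col4a1 to Col4a3, which sets the general type IV chain against the glomerular one. It was 2.67, 2.42 and 3.70 in the controls and 8.65, 13.2 and 17.8 with Wnt1. The mean log2 ratio was 1.53 ± 0.32 and 3.66 ± 0.52 (SD, n = 3), a difference of 2.13. Col4a3 to Col4a4 was 0.974, 0.96 and 0.709 in the controls and 1.11, 1.12 and 0.712 with Wnt1. The low values belong to control library 6 and Wnt1 library 5, the pair that stood apart on the second principal component, so the libraries differed more within the groups than between them. Col4a5 to Col4a6 was 12.8 to 15.3 in the controls and 7.97, 7.29 and 3.46 with Wnt1. Within the multiplexins, Col15a1 to Col18a1 was 0.182 to 0.202 in the controls and 0.307 to 0.357 with Wnt1, without overlap. Within type VI, Col6a1 to Col6a2 was 1.58 to 1.64 and 1.29 to 1.43, and Col6a3 to Col6a1 0.396 to 0.488 and 0.52 to 0.658. Col8a1 to Col8a2 was 2.63 to 5.03 and 1.01 to 2.35, again lowest in control library 6 and Wnt1 library 5 within their groups. Col5a1 to Col5a2 overlapped fully, with a mean log2 difference of 0.00.

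**Figure D5:**
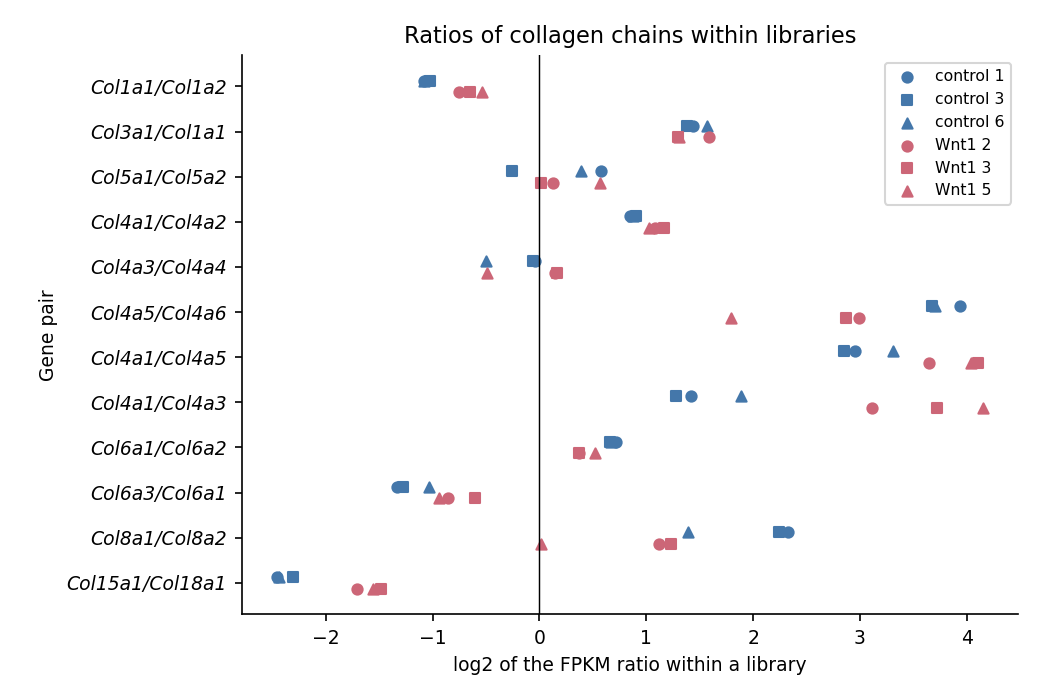
Log2 of the FPKM ratio of 12 pairs of collagen genes within each library, with controls in blue and Wnt1 libraries in red. In 9 pairs the colours do not overlap, and for Col4a3 to Col4a4 the triangles of control library 6 and Wnt1 library 5 lie together to the left of the rest.

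The Wnt1 libraries kept a common order over most collagens. Of the 26 higher genes, 21 were lowest in Wnt1 library 2, 5 in Wnt1 library 5 and none in Wnt1 library 3. The highest value lay in Wnt1 library 5 for 17 genes, in library 3 for 7 and in library 2 for 2. Over all 3239 genes called higher, library 2 was the lowest for 50% and library 5 the highest for 52.5%. The genes share libraries and scaling factors, so this is a description.

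In GENCODE M21 on GRCm38 the 44 genes lie on 15 chromosomes. Besides the type IV pairs, Col3a1 and Col5a2 lie tail to tail 24614 bases apart and were both higher, and Col6a2 and Col6a1 lie 85161 bases apart in the same orientation and were both higher. RefSeq windows of 250 bases before to 50 after the start were found for 35 of the 44 genes, as 38 windows. Col12a1, Col14a1, Col1a1, Col22a1, Col26a1, Col2a1, Col4a3, Col5a2 and Col9a3 had none in the table. Motifs were searched as letters on both strands. The GC box GGGCGG was in 17 of 25 windows of higher genes and 2 of 3 of lower genes, and in 35.66% of all 32851 windows. CCAAT was in 10 and 0 (37.41% of all), and TATAAA in 4 and 0 (13.62%). The TCF/LEF letters CTTTGNT, which the nuclear partners of beta-catenin can bind, were in 3 of 25 and 1 of 3 windows, and in 18.59% of all. The AP-1 letters TGANTCA were in 1 of 25 and 0 of 3 (7.81%), the 1 being Col6a1. A match is a run of letters and shows no binding.

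Genes that make, mature, bind and cut collagen were followed as 5 lists, whose counts stand against 22.4% higher and 18.7% lower among all tested genes and a median of 0.05. Of 23 folding and hydroxylation genes, all tested, 10 were higher and 3 lower, with a median log2 fold change of 0.24. Serpinh1, the collagen chaperone HSP47, rose from 144.3 ± 22.47 to 386 ± 82.16 CPM (1.42 ± 0.19), and Fkbp10, a prolyl isomerase for procollagen, by 1.90 ± 0.25. Fkbp14 (1.18 ± 0.15) and Fkbp7 (1.41 ± 0.23), of the same family, rose too. P3h2, a prolyl 3-hydroxylase that acts on type IV collagen, fell from 190.4 ± 9.418 to 95.36 ± 8.268 CPM (-0.998 ± 0.12, edgeR adjusted p = 0.000523). Colgalt2, a collagen galactosyltransferase, changed by -1.21 ± 0.14 and Tmem38b, an endoplasmic reticulum cation channel, by -0.82 ± 0.14. P4ha1, a catalytic subunit of the prolyl 4-hydroxylase, was at 0.01 ± 0.14 and P4hb, its other subunit, at -0.38 ± 0.16, and neither passed. The alternative catalytic subunit P4ha2 did not pass either (0.24 ± 0.15, edgeR adjusted p = 0.246). P4ha3, a further one, was higher (4.25 ± 0.80, edgeR adjusted p = 0.00336). Its levels were very low, at 0.04587 ± 0.04598 CPM in the controls and 0.9585 ± 0.4881 with Wnt1.

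Of 18 genes for procollagen processing and cross-linking, 17 were tested, 12 were higher and 1 was lower (median 1.22). Adamts2, which removes the amino end of procollagen, rose by 2.71 ± 0.25, from 9.928 ± 1.779 to 65.19 ± 18.61 CPM. Bmp1, which removes the carboxyl end, rose by 2.22 ± 0.18. Loxl2, a lysyl oxidase, and Sparc, a collagen-binding glycoprotein, rose by 1.62 ± 0.20 and 1.47 ± 0.19. Fmod, a proteoglycan on fibrils, was lower (-1.15 ± 0.22, edgeR adjusted p = 0.00458), and Tll2 was at 0 throughout. Pxdn, the peroxidase that forms sulfilimine bonds in type IV collagen, rose by 1.40 ± 0.17, so both genes of the list for basement membrane cross-linking, Pxdn and Loxl2, were higher.

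Of 12 collagen receptors and uptake genes, 11 were tested, 7 were higher and 1 lower (median 1.09). Lair1, an inhibitory receptor of leukocytes, rose by 3.08 ± 0.19, the integrin chain Itga2 by 2.99 ± 0.27, the uptake receptor Mrc2 by 1.91 ± 0.23 and the kinase receptor Ddr2 by 1.55 ± 0.28. Cd36, a scavenger receptor, fell from 278.1 ± 47.4 to 92.05 ± 28.53 CPM. Of 12 proteases that degrade collagen 8 were tested, with 4 higher and 1 lower (median 1.22). Mmp2 rose by 2.76 ± 0.24, Mmp14, which activates it, by 2.70 ± 0.16, Mmp9 by 2.36 ± 0.35 and the lysosomal cathepsin Ctsk by 2.21 ± 0.21. Pepd, which splits proline dipeptides, was lower (-1.31 ± 0.15), and Mmp1a and Mmp1b were at 0 in every library. The summed levels of 2 lists overlapped between the groups: the folding and hydroxylation genes had 2128 to 2286 CPM in the controls and 2036 to 2501 with Wnt1, and the proteases 348.1 to 397.9 and 336.9 to 437.6. Much of each sum came from 1 gene with a smaller mean with Wnt1. P4hb had 971.1 and 745.2 CPM and Pepd 278.4 and 112.3. Mmp2, by contrast, had 11.14 and 75.31 CPM, so the protease sum does not describe the single proteases.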

How the data were processed

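The deposited table gives expected counts and FPKM per gene, and the file names the authors' columns by library. Expected counts are the authors' estimates of reads per gene, and FPKM is the authors' value divided by transcript length and library size. Per the submitters' processing notes, the build was mm10 and the tools named were RSEM, StringTie 1.3.1, HISAT2, Bowtie2 2.2.8 and fastp 0.18.0, with no role stated. Counts were rounded to whole numbers (9.02% were not whole within a tolerance of 1e-06). Genes were filtered by filterByExpr, scaled by TMM and tested in edgeR 4.0.16 (R 4.3.3), glmQLFit robust, 3 against 3 libraries, two-sided, called at an adjusted p of 0.05. Standard errors were derived from the same statistic. The script was tested on simulated data, where few genes changed, as many up as down. A shift of the whole table was not simulated. DESeq2 1.42.0, limma 3.58.1, other scalings and filters, and leaving out libraries were alternatives. FPKM served for comparisons between genes. The labels name 1 batch. Members and lists were chosen with earlier results of these data known. Named individually were the main chains, up to 4 called genes of smallest p per class and list, and called genes against their class. P4ha1, P4ha2, P4ha3, P4hb, Acta2, Meox1, Runx2, Comp, Lor and the keratins were named after their values were seen. Markers of skeletal muscle (0.3218 to 0.776 against 0.9193 to 1.027 CPM, 0 of 6 tested), adipocytes (30.8 to 40.45 against 24.32 to 30.27, 1 of 2 tested lower) and mesangial cells (252.3 to 264.2 against 274.3 to 382.3, 2 of 6 higher and 1 lower) were also read. Over all tested genes 22.4% were higher and 18.7% lower.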

Additional observations from a re-analysis of the deposited data

How the results depend on the processing

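Over up to 17 alternatives per gene, 28 of the 36 tested collagens kept direction and call wherever they were tested. The exceptions were Col4a3, Col4a5, Col6a4, Col6a5, Col14a1, Col20a1, Col26a1 and Col28a1. The count of higher collagens ran from 22 to 28, and from 23 to 27 when a library was left out. That of lower ones ran from 3 to 5 when a library was left out, and was 2 by limma on log2(FPKM + 1) and on log2(FPKM + 0.1), where 27 were tested. The calls over all tested genes moved widely. Higher genes ran from 2681 of 14558 without Wnt1 library 3 to 6348 of 14432 with library totals. Lower genes ran from 1234 of 12520 by limma on log2(FPKM + 0.1) to 4432 of 14563 without both control library 6 and Wnt1 library 5. Col20a1 (0.13) was -0.20 with voom, -0.23 without both control library 6 and Wnt1 library 5, and -0.31 to 0.43 when a library was left out. Col26a1 (-0.32) was 0.10 with library totals, 0.05 by limma on log2(FPKM + 1) with or without a filter, and 0.06 with the smaller pseudocount. Voom and leaving out both libraries called it lower (-0.60 and -0.59). The fibrillar share difference was 1.788 points without Col1a1, Col1a2 and Col3a1. The log2 ratio of Col5a1 to Col5a2 was 0.13 from counts and -0.25 to 0.17 when a library was left out, and that of Col4a3 to Col4a4 -0.01 to 0.35. A pseudocount of 1 shrinks the change of scarce genes (Col17a1 1.16, Col6a6 -0.58). Where counts of markers or pathway genes moved with scaling or without both libraries, the cause was not tested. No paired analysis was possible because the groups share only 1 replicate number. Too few counts kept Col2a1, Col9a1, Col9a2, Col9a3, Col19a1, Col22a1, Col24a1 and Col25a1 out of the main test.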
